A study of Homo sapiens with 35 samples.

Results

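The G1 cyclins, their kinases and E2F factors set out here are 10 genes of the restriction point of the cell cycle: CCND1, CCND2, CCND3, CCNE1, CCNE2, CDK2, CDK4, CDK6, E2F1 and RB1. They were taken by symbol, as all probe sets annotated to exactly 1 of these names, which gave 17 of the 19415 probe sets with exactly 1 symbol and 10 of 11940 genes. The rule names symbols and sets no threshold on a measured value. Each gene is reported by its brightest probe set, and the other probe sets are given where they differ.

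In G1, D-type cyclins bind CDK4 or CDK6 and phosphorylate RB1, the retinoblastoma protein, which otherwise holds E2F factors inactive. Freed E2F1 and its relatives switch on genes of DNA replication and also the E-type cyclins, which activate CDK2 and complete the phosphorylation of RB1. In neuroblastoma, retinoic acid is known to slow proliferation and bring on neurite growth, and histone deacetylase inhibitors are known to induce the CDK inhibitor CDKN1A in many cells.

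BE(2)-C, a human neuroblastoma cell line that is itself a clone and carries extra copies of MYCN, received 5 µM all-trans retinoic acid (ATRA, a ligand of nuclear receptors), 1 mM valproic acid (VPA, a histone deacetylase inhibitor), ATRA plus VPA, or the vehicle DMSO. Cells were collected at 6, 24 and 72 h, which makes 12 groups of 3 arrays each, except DMSO at 72 h with 2. All groups share the line and the serum-containing medium, and the labels do not say whether the arrays of a group came from separate cultures, so that each p-value measures the spread between these samples, which may be technical. RNA from whole cultures was measured on Affymetrix arrays, and values are intensity on a linear scale. Fewer cells of a kind and less RNA per cell cannot be told apart in such samples.

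Most markers of sympathetic neuroblasts were read: 8 of the 9 measured had a mean intensity over 100, MYCN, HAND1 and GATA2 among them, and HAND2 (32.7) did not. The counts over 100 were 0 of 5 Schwann and glial, 0 of 4 haematopoietic, 0 of 3 endothelial and 1 of 5 epithelial markers (KRT19). Of 4 fibroblast markers 2 were over 100 (PDGFRB at 195 and COL3A1 at 101). These markers describe a lineage and do not identify the line. The retinoid-induced carrier CRABP2 rose 16.9-fold with ATRA at 24 h (adjusted p = 2.4e-17). Median intensity per array was 53.2 to 58.9 apart from DMSO 24 h replicate 1 at 43.6, which also had the largest residual SD of the 35 arrays, 0.234 against 0.083 to 0.171. The log2 ratio of 3' to 5' control probe sets for GAPDH and ACTB, a sign of RNA and labelling quality, averaged 0.20 to 0.44 over the 6 h groups. At 24 h it was 0.89 with ATRA, 1.60 with VPA, 0.97 with the combination and 1.05 with DMSO, and at 72 h 1.82, 1.09, 1.36 and 1.06 in the same order. On each array the lower quartile of all probe sets was 20.8 to 23.6, and readings around it are not taken as signal here.

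Each treatment was compared with DMSO of the same time by limma on log2 of the intensity plus 1, and a gene is said to rise or fall where its p-value, adjusted by Benjamini-Hochberg over all 11940 genes, was below 0.05. At 6 h, ATRA moved 0 of the 10 genes by limma (0 also at an unadjusted p under 0.05), against 1.62% of all genes. VPA raised 3 of 10 (CCND3, CCNE1 and RB1), where 11.2% of all genes passed and 6.46% rose. The combination raised 2 of 10 (CCND3 and CCNE1), where 11.6% passed and 6.73% rose. At 24 h, 2 of 10 passed with ATRA (CCND1 up, E2F1 down), 1 with VPA (RB1 up) and 1 with the combination (E2F1 down), and the shares of all genes were 18.5%, 12.2% and 21.2%. At 72 h, ATRA lowered 4 of 10 (CCND3, CDK2, CDK4 and CCNE2, the last to about the lower quartile) and raised 0, while 30.9% of all genes passed and 20.2% fell. The combination lowered 5 of 10 (the same 4 and E2F1) and raised CCND1, while 31.5% of all genes passed and 16.6% fell, and VPA moved 0 of 10 by limma (1 at an unadjusted p under 0.05), against 6.67%. Each gene weighs 10% of the 10, and the 24 h shares of the members lie near or below those of all genes. In 9 comparisons with DMSO, 8 of the 10 genes passed at least once, and CCND2 and CDK6 in none. The share of all genes that passed at least once was not computed, so 8 of 10 cannot be set against it.

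**Figure D1:**
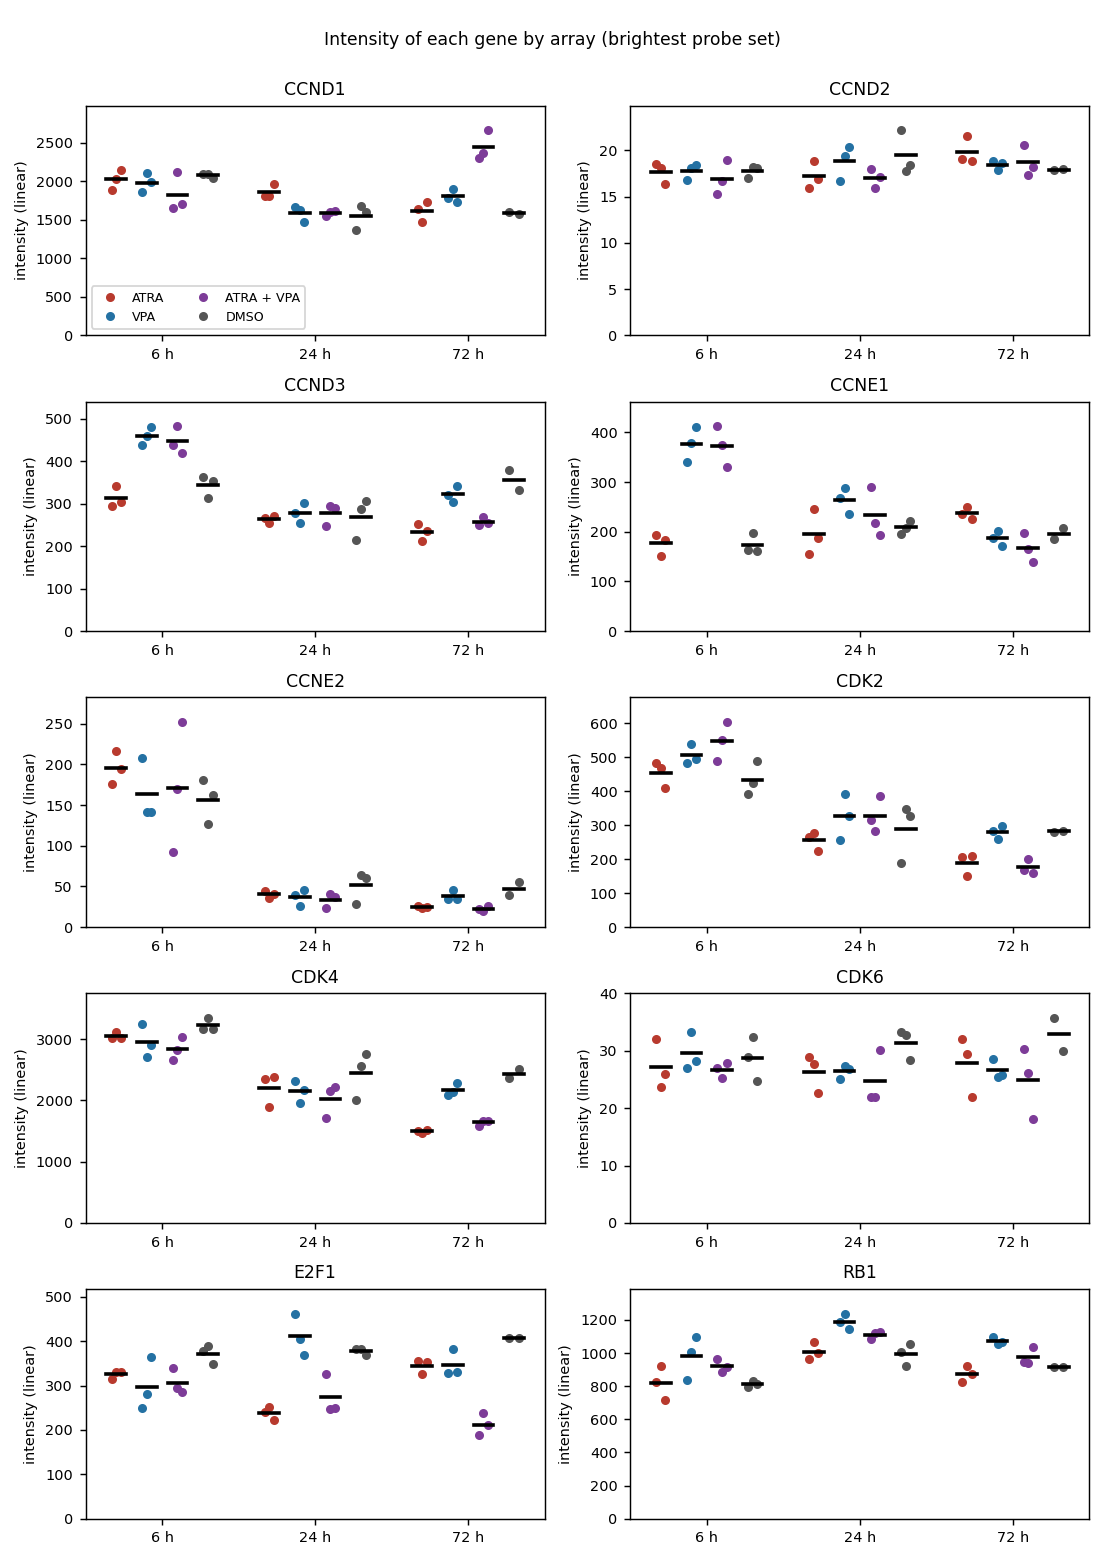
Intensity (linear scale, axis from 0) of the brightest probe set of each of the 10 genes on every array; points are arrays, black lines group means, and within each time the order is ATRA, VPA, ATRA plus VPA, DMSO. CCNE1 stands higher at 6 h with VPA, alone or in the combination, CCND1 with the combination at 72 h, and CCNE2 and CDK2 are higher at 6 h than later in every group.

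**Figure D2:**
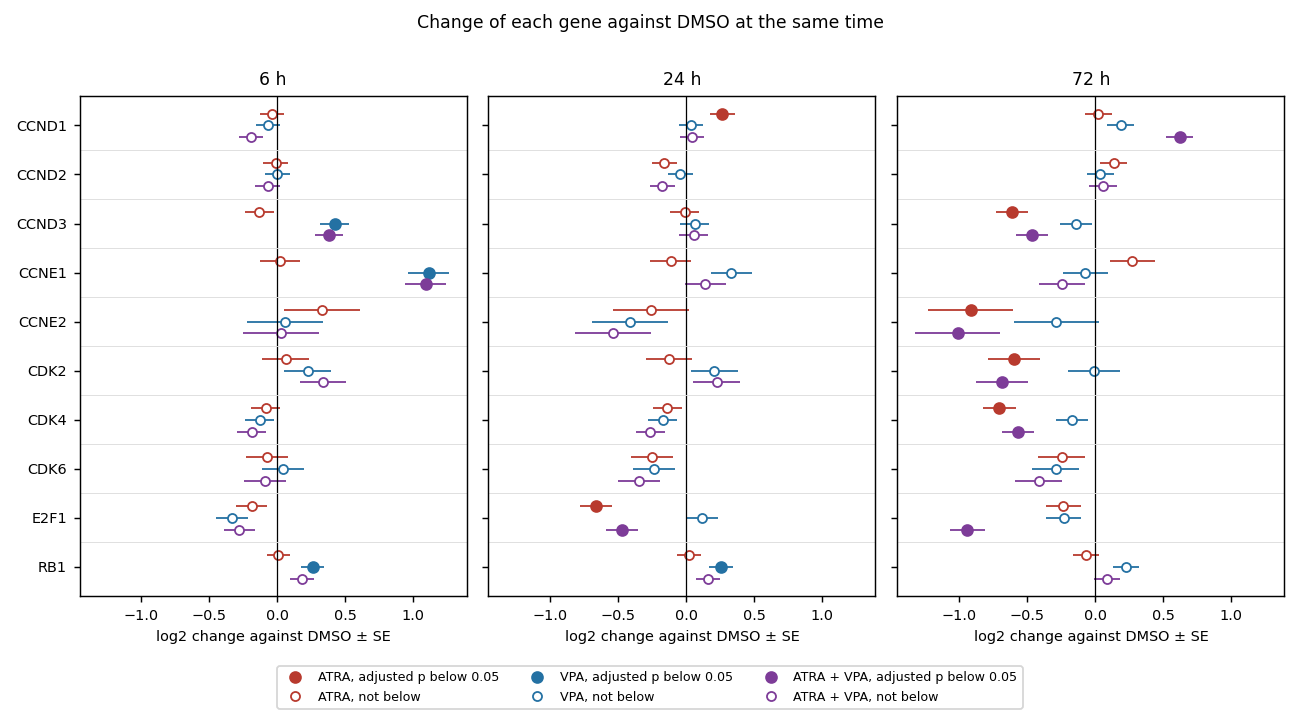
Log2 change against DMSO of the same time, with its standard error, for the 10 genes at 6, 24 and 72 h; filled points passed an adjusted p of 0.05. At 6 h the filled points lie at CCND3, CCNE1 and RB1, all above 0, and at 72 h the only filled point above 0 is CCND1 with the combination.

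The D-type cyclins, the sensors of growth signals that start G1 progression, went different ways. CCND1 (probe set 208712_at) had intensities of 1642, 1467 and 1735 with ATRA, 1787, 1900.2 and 1735 with VPA, 2302, 2369 and 2659.6 with the combination and 1593 and 1578 with DMSO at 72 h. Every combination array was above every array of the other 3 groups at that time. CCND1 was thus 1.54-fold higher with the combination than with DMSO at 72 h (log2 change 0.62 ± 0.10, SE, adjusted p = 1.2e-05), and the change was 0.02 ± 0.10 with ATRA and 0.19 ± 0.10 with VPA, neither past the threshold (adjusted p = 0.89 and 0.34). The combination was also 1.51-fold above ATRA (adjusted p = 1.5e-05) and 1.35-fold above VPA (adjusted p = 0.00042).

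At the earlier times CCND1 moved little against DMSO. At 24 h its intensities were 1802, 1801 and 1957 with ATRA, 1659.6, 1619.9 and 1466 with VPA, 1550.4, 1595 and 1614 with the combination and 1367, 1671 and 1599.9 with DMSO. The ATRA arrays lay above the DMSO arrays, the lowest of which was the array that stands apart. The rise with ATRA was small (log2 change 0.27 ± 0.09, SE, adjusted p = 0.037), and it did not pass without that DMSO array (log2 change 0.18, adjusted p = 0.26) or without any of the 3 ATRA arrays. At 6 h CCND1 read 1888, 2031 and 2147 with ATRA, 1855, 2101 and 1982 with VPA, 1657, 2113 and 1701 with the combination and 2099, 2088 and 2040.2 with DMSO. Each treated group had arrays within or above the DMSO range, and the log2 changes of -0.04, -0.07 and -0.20 for ATRA, VPA and the combination did not pass. Without combination replicate 2, its only array not below the DMSO range, the combination's change was -0.31 and passed (adjusted p = 0.031).

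A second CCND1 probe set, 208711_s_at, showed the combination rise at 72 h too, and in addition one with ATRA. It read 1090.4, 960.2 and 1268 with ATRA, 949.9, 979.7 and 992 with VPA, 1359.8, 1485 and 1274 with the combination and 841 and 747 with DMSO at 72 h. All 9 treated arrays lay above both DMSO arrays. In the fit of all 19415 probe sets its log2 change was 0.47 ± 0.12 with ATRA (adjusted p = 0.0036) and 0.79 ± 0.12 with the combination (adjusted p = 6.5e-06), while 0.30 with VPA did not pass (adjusted p = 0.2). In that fit 26.6% of probe sets passed for ATRA and 26.4% for the combination. Over the 12 group means the 2 probe sets of CCND1 correlated at r = 0.475, given as a description. The rise of CCND1 with ATRA alone at 72 h was thus read by 1 of its 2 probe sets, and the difference between them was not tested. With the 2 averaged, the ATRA change was 0.25 and passed (adjusted p = 0.018).

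CCND3 (201700_at), the D cyclin best known from haematopoietic cells, was higher early with VPA and lower late with ATRA. At 6 h it read 295, 342 and 304 with ATRA, 438, 459 and 481 with VPA, 439, 483 and 419 with the combination and 364, 313 and 353 with DMSO. All 6 arrays that had received VPA were above all 6 that had not. The rise was 1.34-fold with VPA (log2 change 0.42 ± 0.11, SE, adjusted p = 0.0072) and 1.30-fold with the combination (log2 change 0.38 ± 0.11, SE, adjusted p = 0.015), and the change with ATRA was -0.13 ± 0.11. Without DMSO 6 h replicate 2, the lowest of its group, the 2 rises had adjusted p = 0.057 and 0.1; without combination replicate 2, the highest of its group, the combination's had 0.093.

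At 24 h the 4 groups of CCND3 overlapped, with log2 changes from DMSO of -0.01, 0.06 and 0.05 for ATRA, VPA and the combination, and 0 of the 3 passed. At 72 h CCND3 read 252, 211 and 235 with ATRA, 319.6, 305 and 343 with VPA, 249, 268 and 256 with the combination and 379.6 and 333 with DMSO. Both groups with ATRA lay wholly below DMSO and below VPA. CCND3 was 1.53-fold lower with ATRA (log2 change -0.61 ± 0.12, SE, adjusted p = 0.00017) and 1.38-fold lower with the combination (log2 change -0.46 ± 0.12, SE, adjusted p = 0.0027; adjusted p = 0.077 without DMSO replicate 1). VPA gave -0.14 ± 0.12, which did not pass. The combination effect at 72 h minus that at 6 h was -0.84 ± 0.16 (adjusted p = 0.00024; 17% of all genes passed this test).

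CCND2, the D cyclin that MYC proteins are known to induce in other cells, read near background. Its 3 probe sets read 14.3 to 22.5 over all 35 arrays, and the brightest, 200952_s_at, was at or below the array's own lower quartile on 34 of 35. No change of it against DMSO passed. The weakest of its probe sets, 200951_s_at, was called higher in ATRA than in VPA at 72 h (log2 change 0.28, adjusted p = 0.028), at levels of 19.2 and 15.6 that are below the lower quartile (27.3% of probe sets passed).

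CDK4 (202246_s_at), the kinase partner of the D cyclins, fell late under ATRA. At 72 h it read 1498, 1462 and 1524 with ATRA, 2086, 2130.0 and 2290.5 with VPA, 1589, 1671 and 1672 with the combination and 2360.5 and 2511 with DMSO. The 6 arrays with ATRA lay below the other 5. CDK4 was 1.63-fold lower with ATRA (log2 change -0.70 ± 0.12, SE, adjusted p = 3.1e-05) and 1.48-fold lower with the combination (log2 change -0.57 ± 0.12, SE, adjusted p = 0.00034), and VPA gave -0.17 ± 0.12 (adjusted p = 0.52). Both falls passed under every alternative tried, the 3'/5' ratio in the model among them.

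Earlier, CDK4 had not moved beyond the threshold. It read 3017, 3113 and 3013 with ATRA, 3254, 2716 and 2907 with VPA, 2653, 2826 and 3037 with the combination and 3169.7, 3347 and 3175 with DMSO at 6 h. At 24 h the values were 2357, 1894 and 2381 with ATRA, 2323, 1959 and 2177 with VPA, 1705, 2157 and 2224 with the combination and 2007, 2559 and 2763 with DMSO, where the groups overlapped. The combination gave -0.26 ± 0.11 at 24 h (adjusted p = 0.077), and without DMSO 24 h replicate 1 this was -0.40 (adjusted p = 0.0067), 1 of 6 alternatives under which it passed. The ATRA effect at 72 h minus that at 6 h was -0.62 ± 0.16 on the log2 scale (adjusted p = 0.0066; 17.3% of all genes passed), which with the 3'/5' ratio in the model had adjusted p = 0.091.

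CDK6, the other kinase that D cyclins activate, was read by 1 dim probe set, 207143_at, at 18.1 to 35.7 over all arrays. Its lowest group mean was 24.7 with the combination at 24 h and its highest 32.9 with DMSO at 72 h, close to the lower quartile. None of its 9 changes against DMSO passed, and the largest was -0.41 ± 0.17 with the combination at 72 h (adjusted p = 0.071). It passed under 3 alternatives at 72 h (adjusted p down to 0.016, without combination replicate 1) and the combination's -0.35 ± 0.16 at 24 h under 3 (down to 0.0081, with array weights). The probe set was at or below the lower quartile on 3 of 35 arrays.

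The E-type cyclins, which activate CDK2 at the G1/S boundary, differed from each other. CCNE1 (213523_at) carried the largest early change of the 10 genes. At 6 h it read 194, 151 and 184 with ATRA, 340.1, 379 and 412 with VPA, 412, 374 and 329 with the combination and 163, 197 and 162 with DMSO. All 6 arrays with VPA lay above all 6 without it. CCNE1 rose 2.16-fold with VPA (log2 change 1.11 ± 0.15, SE, adjusted p = 4.2e-06) and 2.13-fold with the combination (log2 change 1.09 ± 0.15, SE, adjusted p = 4.8e-06), and ATRA gave 0.02 ± 0.15 (95% interval -0.29 to 0.33, adjusted p = 1). The difference between the combination and VPA was -0.02, with an interval of -0.33 to 0.28. Both rises passed under every alternative tried.

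CCNE1 passed against DMSO at 6 h and at neither later time. At 24 h it read 155, 246 and 187 with ATRA, 267, 287 and 236 with VPA, 289.5, 217 and 193 with the combination and 196, 208 and 222 with DMSO. The VPA arrays still lay above the DMSO arrays, but the change of 0.33 ± 0.15 did not pass (adjusted p = 0.16). The VPA effect at 24 h minus that at 6 h was -0.78 ± 0.21 (adjusted p = 0.043; 2.38% of all genes passed; lost under 11 alternatives, 10 of them leaving out 1 array), and for the combination the same difference was -0.95 ± 0.21 (adjusted p = 0.0044; 6.05%). At 72 h CCNE1 read 235, 251 and 226 with ATRA, 188, 201 and 171 with VPA, 197, 166 and 138 with the combination and 185 and 207 with DMSO. The VPA effect at 72 h minus that at 6 h was -1.19 ± 0.22 (adjusted p = 0.002; 2% of all genes). No group then differed from DMSO past the threshold, while the combination was 1.43-fold below ATRA (log2 change -0.52 ± 0.15, SE, adjusted p = 0.013), a call that did not pass with the 3'/5' ratio in the model (adjusted p = 0.077), without ATRA replicate 2 (0.052) or without combination replicate 3 (0.11).

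CCNE2 (211814_s_at) moved above all with time in culture. It read 176, 217 and 194 with ATRA, 208, 142 and 141 with VPA, 92.1, 170.3 and 252 with the combination and 180.3, 127 and 162 with DMSO at 6 h. At 24 h it read 44.6, 35.3 and 41.1 with ATRA, 39.6, 25.9 and 44.9 with VPA, 23.6, 41.0 and 36.7 with the combination and 28.6, 63.9 and 60.7 with DMSO, all below the lowest 6 h array. The groups overlapped at both times, and no treatment passed against DMSO. The combination's -0.54 at 24 h (adjusted p = 0.19) passed under 3 alternatives (adjusted p down to 0.0061), leaving out DMSO 24 h replicate 1 among them. With array weights ATRA and VPA passed at 24 h too (adjusted p = 0.041 and 0.016). At 72 h CCNE2 read 25.5, 23.0 and 24.1 with ATRA, 34.5, 45.4 and 35.1 with VPA, 22.1, 20.1 and 25.9 with the combination and 39.2 and 55.1 with DMSO.

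At 72 h both groups with ATRA lay below both DMSO arrays and near the lower quartile of the arrays, at or below it on 1 of 3 ATRA arrays and 2 of 3 combination arrays. CCNE2 passed as lower with ATRA (adjusted p = 0.025) and with the combination (adjusted p = 0.012), but no fold is given, since these readings lie at a level where signal and background are not told apart. With a pseudocount of 32 in place of 1 neither passed (log2 changes -0.49 and -0.53), nor without DMSO 72 h replicate 2, and with the 3'/5' ratio in the model the ATRA change was -0.15 (adjusted p = 0.71).

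CDK2 (204252_at), the kinase that E cyclins activate, fell late with ATRA. At 72 h it read 206, 151 and 209 with ATRA, 284, 260.4 and 298 with VPA, 169, 201 and 158 with the combination and 281 and 283 with DMSO. The 6 arrays with ATRA lay below the 5 without it. CDK2 was 1.51-fold lower with ATRA (log2 change -0.59 ± 0.19, SE, adjusted p = 0.018) and 1.61-fold lower with the combination (log2 change -0.69 ± 0.19, SE, adjusted p = 0.0059), while VPA gave -0.01 ± 0.19 with a 95% interval of -0.40 to 0.38. The ATRA call did not pass with the 3'/5' ratio in the model (log2 change -0.57, adjusted p = 0.066), with its probe sets averaged, or without either DMSO array or ATRA replicate 2.

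At 6 h CDK2 read 483, 468 and 408 with ATRA, 482, 539.6 and 495 with VPA, 489.8, 552 and 604 with the combination and 391, 423 and 489 with DMSO. At 24 h it read 265, 276 and 225 with ATRA, 258, 392 and 327 with VPA, 316, 282 and 385 with the combination and 189, 347 and 327 with DMSO. The combination arrays at 6 h lay above the DMSO arrays, yet 0.34 ± 0.17 did not pass (adjusted p = 0.26), and at 24 h all groups overlapped DMSO. The combination effect at 72 h minus that at 6 h was -1.02 ± 0.26 (adjusted p = 0.0048, and 0.074 with its probe sets averaged). A second probe set, 211804_s_at, spanned 33.7 to 379.9 and showed no call against DMSO (log2 changes -0.51 with ATRA and -0.47 with the combination at 72 h), and the other, 211803_at, was at or below the lower quartile on 19 of 35 arrays.

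E2F1, the transcription factor that RB1 restrains, was lower with ATRA at 24 h and with the combination at 24 and 72 h. On the brightest probe sets CCNE1 passed against DMSO at 6 h and E2F1 at 24 and 72 h. The other E2F1 probe set also passed as lower with VPA at 6 h. The start region of E2F1 is shown beside that of CCNE1 because both genes are known as targets of E2F factors. Each is the 250 bases before the gene's start on its own strand from RefSeq (GRCh38.p14), with letters matching an E2F site in capitals. The motifs searched were TTTCGCGC, TTTGGCGC, TTTCCCGC and TTTGCCGC, on both strands.
E2F1 chr20:33686386-33686635, minus strand: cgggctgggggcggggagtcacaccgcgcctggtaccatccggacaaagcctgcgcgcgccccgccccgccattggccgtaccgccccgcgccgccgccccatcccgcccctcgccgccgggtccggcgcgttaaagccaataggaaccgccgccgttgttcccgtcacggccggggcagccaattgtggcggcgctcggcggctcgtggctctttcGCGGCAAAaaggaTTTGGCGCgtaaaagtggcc
CCNE1 chr19:29811741-29811990, plus strand: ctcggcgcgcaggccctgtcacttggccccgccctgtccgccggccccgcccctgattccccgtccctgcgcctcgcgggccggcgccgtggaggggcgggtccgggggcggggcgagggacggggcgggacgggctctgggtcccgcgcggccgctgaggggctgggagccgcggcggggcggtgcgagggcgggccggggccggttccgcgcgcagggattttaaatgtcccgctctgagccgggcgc
The E2F1 window held 2 matches, GCGGCAAA at -33 to -26 (TTTGCCGC on the other strand) and TTTGGCGC at -20 to -13 from the start, which do not overlap. The CCNE1 window held none of these letters, and of 9 windows for 6 of the 10 genes that of E2F1 alone had a match. CCND3 and CDK6 had more than 1 window each, at alternative starts. The only RB1 window, chr13:48476200-48476449, was 36.8% G and C. Whether a window lies at the main start of its gene was not checked, so the other genes' main start regions may hold matches. Of 35116 windows of that length in the table, 979 (2.79%) held at least 1. A match describes the letters, not a bound site.

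At 24 h E2F1 (204947_at) read 239.7, 253 and 223 with ATRA, 462, 404 and 369 with VPA, 326, 248 and 249 with the combination and 382, 383 and 369 with DMSO. The ATRA and combination arrays lay below every DMSO array and every VPA array. E2F1 was 1.58-fold lower with ATRA (log2 change -0.66 ± 0.12, SE, adjusted p = 8.3e-05) and 1.39-fold lower with the combination (log2 change -0.47 ± 0.12, SE, adjusted p = 0.0031; adjusted p = 0.081 with only those 2 groups in the fit). VPA gave 0.12 ± 0.12 (adjusted p = 0.58), and the combination was 1.51-fold below VPA (adjusted p = 0.00056).

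At 72 h the same probe set read 355, 326 and 354 with ATRA, 327, 383 and 331 with VPA, 188, 238 and 211 with the combination and 407 and 407 with DMSO. Every combination array was below every other array of that time. E2F1 was 1.92-fold lower with the combination than with DMSO (log2 change -0.94 ± 0.13, SE, adjusted p = 9.9e-07), 1.63-fold below ATRA (adjusted p = 5.1e-05) and 1.64-fold below VPA (adjusted p = 1.8e-05). The change was -0.24 ± 0.13 with ATRA (adjusted p = 0.17) and -0.23 ± 0.13 with VPA (adjusted p = 0.37), neither past the threshold. With the probe sets of E2F1 averaged, the ATRA change was -0.61 and passed (adjusted p = 0.00046). At 6 h E2F1 read 316, 331 and 330.2 with ATRA, 250.2, 280.0 and 364 with VPA, 340.0, 295 and 286 with the combination and 377, 389 and 349 with DMSO, where VPA gave -0.34 ± 0.12 (adjusted p = 0.06). That change passed under 5 of 15 alternatives, at -0.49 (adjusted p = 0.0056) without VPA replicate 3, the highest of its group.

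The other E2F1 probe set, 2028_s_at, gave a fall with ATRA at 72 h that the brightest did not. It read 109.6, 133 and 126 with ATRA, 180.2, 188 and 189 with VPA, 82.9, 100.3 and 106 with the combination and 243 and 246 with DMSO at 72 h. All 9 treated arrays were below both DMSO arrays, and those with ATRA below those with VPA alone. Its log2 change was -0.99 ± 0.16 with ATRA (adjusted p = 2.2e-05), -0.40 ± 0.16 with VPA (adjusted p = 0.2) and -1.34 ± 0.16 with the combination (adjusted p = 1.1e-07). At 24 h it gave -0.64 ± 0.14 with ATRA (adjusted p = 0.0019) and -0.42 ± 0.14 with the combination (adjusted p = 0.042, arrays overlapping DMSO), and at 6 h -0.49 ± 0.14 with VPA (adjusted p = 0.027), where 14.8%, 16.5% and 8.9% of probe sets passed. The 2 probe sets had the same sign in 9 of 9 comparisons with DMSO, and the difference between them was not tested.

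**Figure D3:**
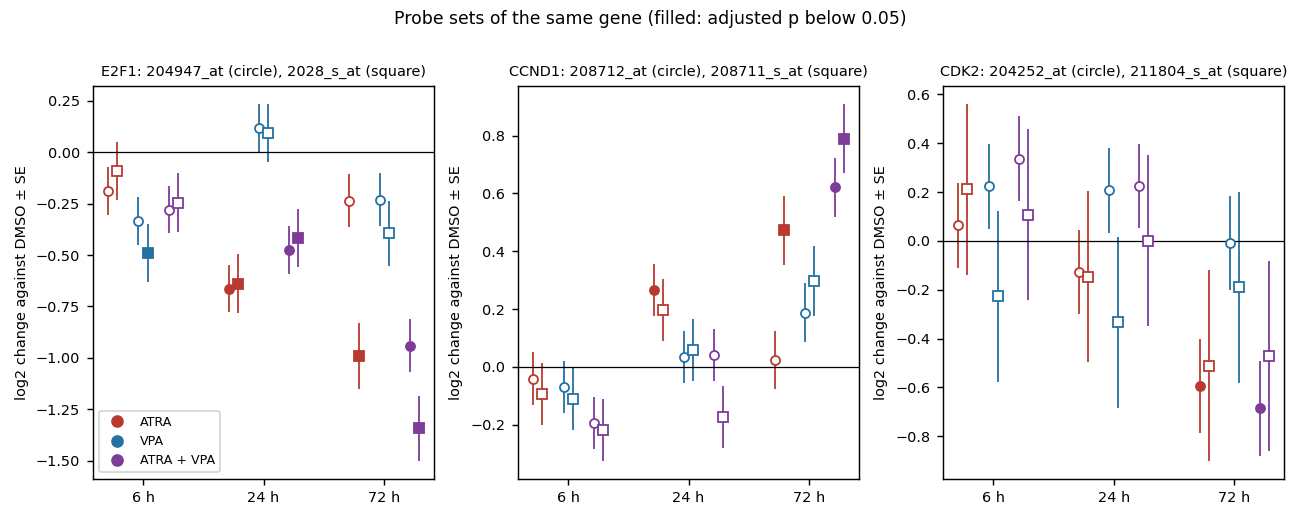
Log2 change against DMSO of the same time, with its standard error, for pairs of probe sets of E2F1, CCND1 and CDK2 (circle, the brightest; square, the other); filled symbols passed an adjusted p of 0.05 over all probe sets. For E2F1 and CCND1 the symbols part at 72 h with ATRA and both pass with the combination.

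RB1 (203132_at), the target of the cyclin-dependent kinases, changed little. At 6 h it read 827, 919 and 718 with ATRA, 838, 1004 and 1095 with VPA, 965, 888 and 915 with the combination and 795, 829.9 and 815 with DMSO. At 24 h it read 964, 1064 and 999 with ATRA, 1185, 1236 and 1142 with VPA, 1087, 1122 and 1125 with the combination and 1008, 923 and 1055 with DMSO. The VPA arrays were above the DMSO arrays at both times, and the rises were 1.20-fold at 6 h (log2 change 0.26 ± 0.09, SE, adjusted p = 0.048) and 1.20-fold at 24 h (log2 change 0.26 ± 0.09, SE, adjusted p = 0.048). Neither passed in the fit of all probe sets or with the 3'/5' ratio in the model (adjusted p = 0.063 and 0.19), and with its 2 probe sets averaged the 6 h change was -0.04. The 6 h rise did not pass when any single DMSO array, or VPA replicate 2 or 3, was left out. The 24 h rise did not pass when any single VPA array, or DMSO replicate 1 or 2, was left out.

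At 72 h RB1 read 823, 923 and 874 with ATRA, 1096, 1056 and 1066 with VPA, 946, 938 and 1038 with the combination and 914 and 916 with DMSO. The VPA arrays were the highest again, but 0.23 ± 0.10 did not pass (adjusted p = 0.19). RB1 was 1.23-fold lower with ATRA than with VPA (log2 change -0.30 ± 0.09, SE, adjusted p = 0.0079), a call that did not pass with its probe sets averaged or after a second quantile normalization. The other probe set, 211540_s_at, was dim at 20.2 to 74.0 and ran the other way over the 12 group means (r = -0.6, a description).

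In DMSO alone, several of these genes came down after 6 h, and each treatment above was set against DMSO of its own time. From 6 to 24 to 72 h, CCNE2 averaged 157 ± 27.1, 51.1 ± 19.5 and 47.2 ± 11.3 (SD, n = 3, 3 and 2). CDK4 averaged 3230.0 ± 101, 2443 ± 391 and 2436 ± 106, and CDK2 434 ± 50.2, 288 ± 85.6 and 282 ± 1.48. Against 6 h, 6 of 10 genes passed at 24 h (15.2% of all genes): CCNE2 (-1.67), CDK2 (-0.64), CCND1 (-0.43), CDK4 (-0.42) and CCND3 (-0.36) fell and RB1 rose (0.29, all log2 changes). At 72 h against 6 h, 4 of 10 fell (10.6% of all genes): CCNE2 at 3.29-fold lower (log2 change -1.72 ± 0.31, SE, adjusted p = 0.00043), CDK2 (-0.61), CDK4 (-0.41) and CCND1 (-0.39). E2F1 did not pass at either time (0.03 ± 0.12 and 0.13 ± 0.13).

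The 3'/5' ratio rose with time in DMSO too, and with that ratio in the model the changes of CCND1, CDK2 and CDK4 with time no longer passed (for CDK4, -0.18 at 24 h and -0.17 at 72 h), nor did those of CCND3 and RB1 at 24 h. The fall of CCNE2 passed with it, at -0.88 and -0.93. With only the DMSO groups of 6 and 24 h in the fit, 0 of the 6 calls at 24 h passed, CCNE2 at adjusted p = 0.051. Without DMSO 72 h replicate 1 or 2 the 72 h calls of CCND1, CDK2 and CDK4 did not pass, and that of CCNE2 passed under every alternative tried. The 72 h call of CCND1 did not pass with its probe sets averaged either. Its other probe set, 208711_s_at, did not fall, averaging 741 at 6 h and 794 at 72 h in DMSO. Without DMSO 24 h replicate 1 the 24 h calls of CCND3, CDK2, CDK4 and RB1 did not pass, and CDK2 was then -0.36. The probe sets of RB1 went opposite ways at 24 h, 0.29 for 203132_at and -0.79 for 211540_s_at, both past the threshold in the fit of all probe sets (17.7% passed).

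The treatments were also compared with each other. At 6 h the combination differed from ATRA in CCND3 (0.51) and CCNE1 (1.07), 2 of 10 against 12% of all genes, and from VPA in 0 of 10 by limma (0 at an unadjusted p under 0.05; 0.57% of all genes). ATRA stood below VPA at 6 h in 3 of 10 (15.6% of all genes), CCND3, CCNE1 and RB1, and at 24 h in 3 of 10 (26.3%), E2F1 (-0.78 ± 0.12), CCNE1 (-0.45 ± 0.15) and RB1 (-0.24 ± 0.09). The 24 h differences of CCNE1 and RB1 did not pass with the 3'/5' ratio in the model (adjusted p = 0.42 and 0.28), nor did that of RB1 at 6 h (0.073). At 24 h the combination differed from VPA in E2F1 alone (11.9% of all genes) and from ATRA in 0 of 10 (9.49%, with 1 at an unadjusted p under 0.05). In the fit of all probe sets, 1 member probe set passed as lower with the combination than with ATRA at 24 h (6.81% of probe sets passed). CCND1 208711_s_at then averaged 560 with the combination and 724 with ATRA.

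At 72 h the combination stood below VPA in 4 of 10 genes and above it in CCND1, where 25.7% of all genes passed: E2F1 (-0.71 ± 0.12), CDK2 (-0.68 ± 0.17), CDK4 (-0.40 ± 0.11) and CCND3 (-0.32 ± 0.11). The CCND3 difference did not pass without any 1 of 4 arrays (VPA or combination replicate 1 or 3), and that of CDK2 with its probe sets averaged. Against ATRA it differed in 3 of 10 (20.8% of all genes): CCND1 above, CCNE1 and E2F1 below. ATRA stood below VPA in 4 of 10 (31.9%): CCND3 (-0.47 ± 0.11), CDK2 (-0.59 ± 0.17), CDK4 (-0.54 ± 0.11) and RB1. For the CDK4 difference between the combination and ATRA, 0.14, the interval was -0.08 to 0.35.

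The interaction, the combination's change minus the changes of both agents alone, passed for 0 of 10 genes at each time by limma, where 0%, 0.737% and 1.92% of all genes passed at 6, 24 and 72 h. At an unadjusted p under 0.05 the counts were 0, 0 and 2. Those 2, on the brightest probe sets, were CCND1 (0.41 ± 0.14, interval 0.13 to 0.69, adjusted p = 0.11) and E2F1 (-0.47 ± 0.17, interval -0.83 to -0.12, adjusted p = 0.15) at 72 h. On the other probe sets the same interactions were near 0, 0.02 ± 0.16 for CCND1 208711_s_at (interval -0.31 to 0.35) and 0.04 ± 0.21 for E2F1 2028_s_at (interval -0.39 to 0.48). The step from ATRA to the combination at 72 h also differed in size between probe sets. It was 0.32 ± 0.11 on 208711_s_at (adjusted p = 0.04) beside 0.60 on 208712_at, and -0.35 ± 0.14 on 2028_s_at, which did not pass (adjusted p = 0.09), beside -0.70 on 204947_at. The difference between probe sets was not tested.

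E2F target genes of S phase fell with ATRA and with the combination at 24 and 72 h. With VPA few passed at those times by limma, while 7 at 24 h and 13 at 72 h had an unadjusted p under 0.05. Of 31 measured, 0 rose and 24 fell with ATRA at 24 h (7 did not pass), where 6.03% of all genes fell, with a median log2 change of -0.39 against 0.035 over all genes. UNG, which removes uracil from DNA, was 1.74-fold lower (log2 change -0.80 ± 0.09, SE, adjusted p = 4.5e-08), and GINS2, a subunit of the replicative helicase, 1.56-fold lower (adjusted p = 4.1e-07). With the combination at 24 h, 22 fell and 9 did not pass (median -0.36 against 0.024), and with VPA 2 fell, UNG and the thymidylate synthase TYMS (-0.27), and 29 did not pass (median -0.02 against 0.052). The shares of all genes that fell were 7.79% with the combination and 2.49% with VPA. Without DMSO 24 h replicate 1, an alternative chosen after seeing the data, the E2F targets that fell numbered 25 for ATRA, 5 for VPA and 25 for the combination.

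At 72 h, 29 of the 31 fell with ATRA and 2 did not pass (median -0.62 against 0.002 over all genes), all 31 fell with the combination (median -0.89 against -0.014), and 3 fell with VPA (median -0.19 against -0.018), where 20.2%, 16.6% and 2.15% of all genes fell. CDT1 and CDC6, which load the helicase at origins, were 2.25-fold and 2.24-fold lower with ATRA (adjusted p = 0.00023 and 8.5e-06). MCM4, a subunit of that helicase, was 3.48-fold lower with the combination (log2 change -1.80 ± 0.20, SE, adjusted p = 2.4e-08), and CDC6 3.00-fold lower. The combination was below ATRA in 17 of the 31, with 14 not past the threshold (median -0.28 against 0.008), where 6.2% of all genes were lower. At 6 h, 8 fell with VPA (median -0.16 against 0.004) and 7 with the combination (median -0.15 against -0.002), where 4.7% and 4.87% of all genes fell, MCM2 among both (-0.50 and -0.48), and 0 of 31 passed with ATRA by limma (1 at an unadjusted p under 0.05). With the 3'/5' ratio in the model, also chosen after seeing the data, 28 fell with ATRA at 72 h and all 31 with the combination. MYBL2, CDC25A and CCNA2 stand on another list as well.

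CDK inhibitors, which bind the cyclin-dependent kinases, moved in both directions. Of 7 measured, 2 rose and 1 fell with ATRA at 24 h, where 18.5% of all genes passed. The counts were the same at 6 h with VPA and with the combination, where 11.2% and 11.6% passed. At 72 h, 1 rose and 1 fell with ATRA and with the combination, where 30.9% and 31.5% passed. The 72 h counts thus lie near those of all genes. CDKN1A, the p21 protein that inhibits CDK2, averaged 476 ± 63.2 with ATRA, 118 ± 18.0 with VPA, 302 ± 15.6 with the combination and 96.8 ± 32.4 with DMSO at 24 h (SD, n = 3). It rose 5.03-fold with ATRA at 24 h (log2 change 2.33 ± 0.22, SE, adjusted p = 2.5e-09) and 2.56-fold at 72 h, and 3.38-fold with the combination at 72 h (log2 change 1.76 ± 0.25, SE, adjusted p = 1.3e-06). At 6 h it rose with VPA (0.84 ± 0.22) and with the combination (0.83 ± 0.22), and ATRA gave 0.25 ± 0.22 (adjusted p = 0.96). CDKN1B, the p27 protein, was 1.33-fold lower with VPA at 6 h (log2 change -0.42 ± 0.08, SE, adjusted p = 0.00047) and 1.31-fold lower with the combination, and passed in no comparison with DMSO at 24 or 72 h. CDKN2D, an inhibitor of CDK4 and CDK6, rose 2.45-fold with the combination at 6 h (adjusted p = 0.00013), and CDKN3, a phosphatase that acts on CDK2, was 1.76-fold lower with ATRA at 72 h (adjusted p = 6.5e-08).

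Among the 9 other E2F and DP factors measured, 3 rose and 2 fell with ATRA at 24 h, and 1 rose and 2 fell at 72 h with ATRA and with the combination. The shares of all genes that passed were 18.5%, 30.9% and 31.5%, so the 72 h counts lie near those of all genes. TFDP2, a DNA-binding partner of E2F factors, rose 2.22-fold with ATRA (log2 change 1.15 ± 0.10, SE, adjusted p = 3.1e-10) and 2.30-fold with the combination at 24 h, and its relative TFDP1 was 1.79-fold lower with ATRA at 72 h (log2 change -0.84 ± 0.10, SE, adjusted p = 2e-07). E2F8, a repressor of the family, was 2.41-fold lower with the combination at 72 h (adjusted p = 2e-07), and E2F5, which binds RB relatives, rose 1.83-fold with ATRA at 24 h (adjusted p = 0.00019). Of 9 RB relatives and partners, 5 fell with ATRA at 72 h and 5 fell and 1 rose with the combination, where 20.2% and 16.6% of all genes fell. RBL1, the p107 relative of RB1, was 1.90-fold lower with the combination (log2 change -0.92 ± 0.15, SE, adjusted p = 1.8e-05), and MYBL1, a MYB factor, was higher with VPA at each time (1.05, 1.23 and 0.93 at 6, 24 and 72 h).

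Of 19 genes of CDK activation and G1 cyclin turnover, 9 fell with ATRA at 72 h, and 8 fell and 2 rose with the combination. With VPA at that time 0 passed by limma (4 at an unadjusted p under 0.05). At 72 h, 20.2% of all genes fell with ATRA and 16.6% with the combination, and 6.67% passed with VPA. CKS1B, which helps the SKP2 ligase recognise CDKN1B, was 1.73-fold lower with ATRA (adjusted p = 1.4e-08). SKP2 itself was 1.84-fold lower with the combination (adjusted p = 4.8e-09), and CDC25A, the phosphatase that activates CDK2, 1.89-fold lower (adjusted p = 3.2e-07). Of the 6 later cyclins and CDK1, 3 fell with ATRA at 24 h and 5 at 72 h, and 4 with the combination at 72 h, CCNA2 at 2.17-fold lower (log2 change -1.12 ± 0.10, SE, adjusted p = 3.5e-10) and CCNB1 at 1.95-fold lower with ATRA (adjusted p = 2.1e-09). The shares of all genes that fell were 6.03%, 20.2% and 16.6% in the same order. MKI67, the proliferation antigen Ki-67, averaged 759 ± 32.8 with ATRA, 1108 ± 15.2 with VPA, 567 ± 15.8 with the combination and 1312 ± 58.6 with DMSO at 72 h (SD, n = 3, and 2 for DMSO). It was 1.73-fold lower with ATRA (log2 change -0.79 ± 0.10, SE, adjusted p = 4.3e-07) and 2.31-fold lower with the combination (adjusted p = 7e-11). Among 10 other cyclins, CCNG2, an atypical cyclin linked to arrest, rose with ATRA at 6, 24 and 72 h (1.79-fold, 1.95-fold and 2.27-fold), and it was the only riser of the list at 6 and 72 h. At 24 h, 3 of the list rose and 1 fell with ATRA, and at 72 h 1 rose and 3 fell, CCNG1 (-0.59) and CCNC (-0.49) among them. With ATRA 18.5% of all genes passed at 24 h and 30.9% at 72 h. Of 13 other cyclin-dependent kinases, 1 rose and 2 fell with ATRA at 72 h, and 3 rose and 1 fell with the combination, where 30.9% and 31.5% of all genes passed, CDK19 of the Mediator complex at 1.84-fold higher (adjusted p = 2.7e-05).

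**Figure D4:**
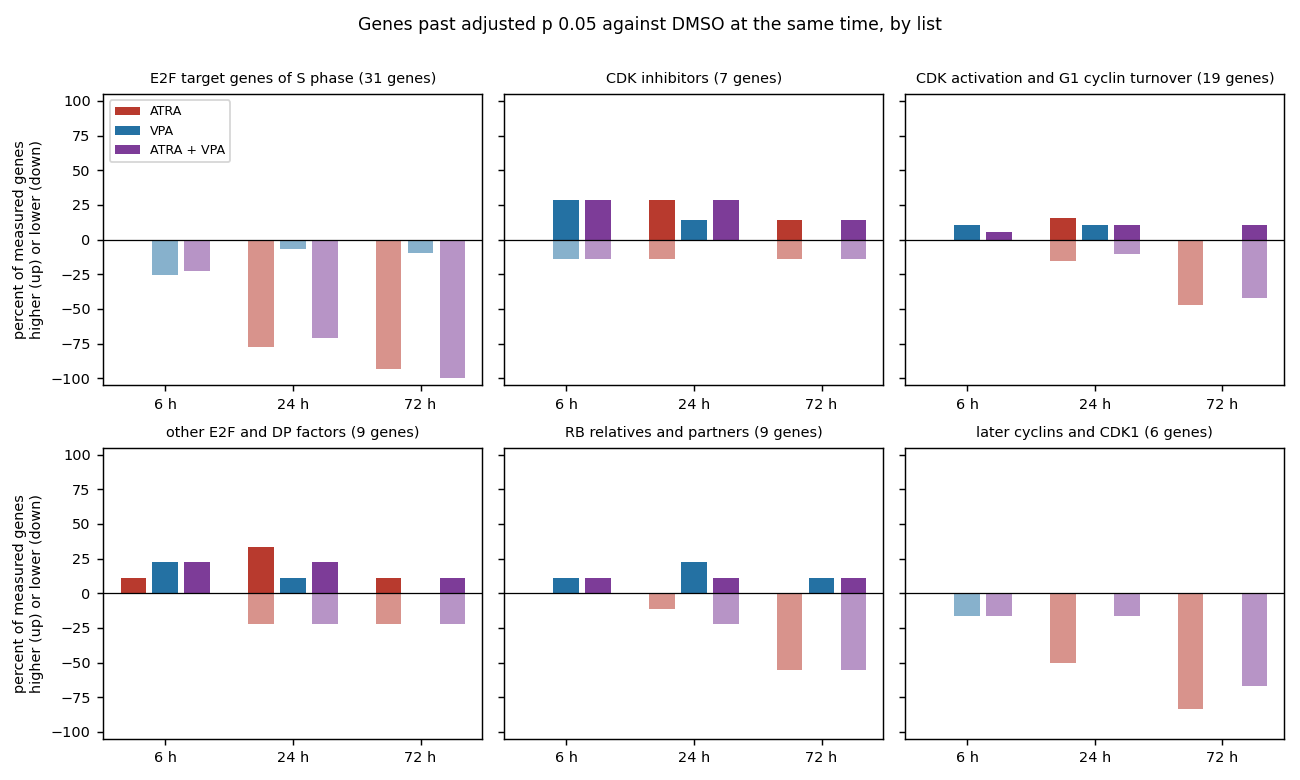
Share of the measured genes of 6 pathway lists that passed an adjusted p of 0.05 against DMSO of the same time, in percent; solid bars upward are genes that were higher, pale bars downward genes that were lower, by treatment and time. E2F targets of S phase fill the downward side with ATRA and with the combination, 24 and 22 of 31 genes at 24 h, and 29 and 31 at 72 h.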

How the data were processed

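BE(2)-C cells were profiled on 35 arrays in 12 treatment and time groups, taken from the labels. The deposited values are intensity per probe set on a linear scale, made with RMA per the submitters' processing notes; its version is not given in the sources used here. RMA scales arrays to each other, which can remove part of a shift common to all genes; the deposited distributions are close but not identical. Symbols came from GEO's platform annotation. Of 22930 probe sets, 19415 carried 1 symbol and entered the fits, while 125 with several symbols, 3292 with none and 98 that are controls did not. A gene was its brightest probe set by mean over all arrays, which gave 11940 genes.

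The deposited intensity was taken as log2(intensity + 1). One limma fit (version 3.58.1, R 4.3.3; lmFit, eBayes) held the means of all 12 groups, with 23 residual and 5.5 prior degrees of freedom and 29 contrasts, and another took all 19415 probe sets. Fold changes are ratios of intensity plus 1. Benjamini-Hochberg adjustment ran over all genes of a contrast, with a threshold of 0.05. The code was tested on simulated data. The number of arrays, 2 or 3 a group, limits the precision, and no arrays were identical.

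The members and lists were chosen with earlier results of these data known, so that their counts are descriptions. Named are all members and their probe sets, CDKN1A, CDKN1B and MKI67, and from each list up to 3 genes a contrast with the largest absolute log2 change past the threshold. For likeness, the 3 genes with the highest correlation over group means were taken for each member that passed against DMSO. Alternatives were a replicate block, leaving out the 33.3% of genes with the lowest values, averaged probe sets, a pseudocount of 32, a second quantile normalization, array weights, a trend and robust prior, the 3'/5' ratio in the model, only the groups compared, and leaving out each array. Calls of the other probe sets taken alone were not put through these alternatives. E2F sites were searched in RefSeq windows of 250 bases, matched by symbol for 6 of 10 genes.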

Additional observations from a re-analysis of the deposited data

Results flagged for a closer look

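In 11 cases the effect of a treatment on a member differed between times by a direct test in the same limma fit, with p-values adjusted over all genes; values are the effect at the later time minus that at 6 h, on the log2 scale. With ATRA at 72 h the effect was below that at 6 h for CCND3 (-0.48 ± 0.16, SE, adjusted p = 0.034), CCNE2 (-1.24 ± 0.42, adjusted p = 0.039) and CDK4 (-0.62 ± 0.16, adjusted p = 0.0066); 17.3% of all genes passed this test. None of these 3 passed with the 3'/5' ratio in the model, and CCNE2 failed without any of 8 of the 11 arrays.

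With VPA the effect on CCNE1 at 72 h was below that at 6 h (-1.19 ± 0.22, adjusted p = 0.002; 2% of all genes), as it was at 24 h (-0.78 ± 0.21, adjusted p = 0.043; 2.38%). The 24 h difference did not pass under 11 alternatives, 10 of which left out 1 array.

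With the combination at 72 h the effect was above that at 6 h for CCND1 (0.82 ± 0.14, adjusted p = 4.4e-05). It was below for CCND3 (-0.84 ± 0.16, adjusted p = 0.00024), CCNE1 (-1.34 ± 0.22, adjusted p = 5.3e-05), CDK2 (-1.02 ± 0.26, adjusted p = 0.0048) and E2F1 (-0.66 ± 0.17, adjusted p = 0.0068), where 17% of all genes passed. The combination effect on CCNE1 at 24 h was also below that at 6 h (-0.95 ± 0.21, adjusted p = 0.0044; 6.05% of all genes). Groups of 2 or 3 arrays are too small for a test of single outlying arrays.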

How the results depend on the processing

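Over 90 member changes against DMSO and 1302 alternative values, 1232 stayed on the same side of the threshold, 39 calls were lost, 30 were gained and 1 turned sign; 68 more changed sign where neither value passed. Of 19 calls, 9 were kept under every alternative: CCNE1 at 6 h with VPA and the combination, E2F1 with ATRA at 24 h, CCND3 and CDK4 with ATRA at 72 h, and CCND1, CDK2, CDK4 and E2F1 with the combination at 72 h. With its probe sets averaged RB1 turned sign in 3 values, to -0.04 for VPA against DMSO at 6 h, 0.028 for ATRA against VPA at 6 h and -0.25 for DMSO at 24 h against 6 h.

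Counts of members that passed moved as follows. With array weights there were 4 for the combination at 6 h (2 as reported), 3 for VPA at 24 h (1 as reported) and 5 for the combination at 24 h (1 as reported). With the 3'/5' ratio in the model there were 0 for VPA at 24 h, 3 for the combination at 24 h and 2 for ATRA at 72 h (4 as reported). With only the groups compared there were 1 for ATRA at 24 h (2 as reported), 0 for VPA and 0 for the combination at 24 h. Averaged probe sets gave 0 for VPA at 24 h. For the combination at 24 h, a second quantile normalization gave 3 and the trend and robust prior 2. Leaving out each array gave 1 to 3 for VPA at 6 h, 1 to 2 for the combination at 6 h, 1 to 2 for ATRA at 24 h, 0 to 1 for VPA at 24 h, 1 to 3 for the combination at 24 h, 2 to 4 for ATRA at 72 h, 5 to 7 for the combination at 72 h, and 0 for ATRA at 6 h and VPA at 72 h. The lowest single-array counts came without DMSO 6 h replicate 2 (VPA 1 and combination 1) and, for ATRA at 72 h, without DMSO replicate 2 or ATRA replicate 2 (2 each); without DMSO 24 h replicate 1 or combination 24 h replicate 3 the combination at 24 h had 3. Of the E2F targets with VPA at 24 h, 1 fell with the 3'/5' ratio in the model and 5 without DMSO 24 h replicate 1 (2 as reported), both alternatives chosen after seeing the data. Apart from construction (fewer arrays), the cause was not tested.

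Replicate numbers did not pair the samples: same-numbered arrays had correlated deviations of -0.228 to 0.187 in 24 pairs, 5 of them over 0.1. With a replicate block the count for VPA at 24 h was 0 in place of 1, since RB1 had adjusted p = 0.052, as it did not pass at 6 h either (0.053). The filter on low values left 8 of 10 members, without CCND2 and CDK6, for which signal over background limits precision.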

Other observations

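The genes whose 12 group means ran most like those of each member are given as a description; the points share arrays, time in culture and normalization. For CDK4 these were POLE3 (Pearson r = 0.991), a small subunit of DNA polymerase epsilon, the glutamine transporter SLC1A5 (0.991) and the clamp loader subunit RFC2 (0.987). For CDK2 they were the linker histone H1-10 (0.982), SSR3 (0.979) and the histone chaperone ASF1B (0.977), and for E2F1 the exosome subunit EXOSC2 (0.952), GINS3 of the replicative helicase (0.929) and FANCG of the Fanconi anaemia pathway (0.921). For CCNE1 the closest was NR2E1, an orphan nuclear receptor (0.968), before ZHX2 (0.903) and MAP6D1 (0.898). CCNE2 ran with DCBLD2 (0.982), FCF1 (0.981) and FKBP5 (0.978), and CCND3 with TRIM26 (0.947), JTB (0.943) and ACD (0.932). RB1 ran with EGLN3, an oxygen-sensing hydroxylase (0.963), REXO2 (0.951) and RAB13 (0.934). CCND1 had the least similar neighbours, the long noncoding RNA TUG1 (0.892), CDK16 (0.878) and TAF13 (0.876).

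Among the members, the means of CDK4 ran closest to those of CCNE2 (r = 0.925) and CDK2 (0.897), and those of CDK2 to CCNE2 (0.913), over the same 12 group means, in all of which the 6 h groups were the highest. CCND1 and E2F1 ran opposite to each other (-0.603).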
